A study of Drosophila melanogaster with 3 samples.

Results

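The peaks described here are binding sites of the protein encoded by CG33213 (Boh1) whose summits lay just inside genes, 51 to 500 bp downstream of the nearest annotated transcription start, where that start belonged to a protein-coding gene. They were taken from the deposited list of peaks that passed the irreproducible discovery rate, called the optimal list below, on the dm6 build. Summits within 500 bp of both starts of a divergent pair of protein-coding genes were left out. The rule used positions only, and it found 150 of 4417 optimal peaks (3.40%, exact 95% interval 2.88 to 3.97). They lay at 148 genes, with 2 peaks each at Trpm and omd.

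The data came from ChIP-seq, the sequencing of DNA bound by an immunoprecipitated protein, on 3 biological replicates of whole embryos, 0 to 24 h old and of both sexes, from 1 transgenic line of Drosophila melanogaster that carried CG33213 fused at its C-terminal end to GFP. All samples carried the transgene and none received a treatment, so the study formed 1 group with no second condition. The labels' description gives an antibody against GFP, while their antibody field gives CG33213. A control was used for peak calling, per the deposited file lists, and was not analysed here.

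Promoters of protein-coding genes in flies hold short sequence elements close to the start, which recruit the transcription machinery directly or through DNA-binding proteins. Housekeeping promoters often carry the DNA replication-related element (DRE), bound by Dref, or Motif 1, bound by M1BP. Developmental promoters more often carry GAGA sites, bound by the GAGA factor, and an initiator at the start itself. Many fly genes have several promoters, and the first exon and first intron of a long transcript can contain the start of a shorter one.

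The first set of sequences shows where the housekeeping elements lay at genes with a downstream peak. No DRE (TATCGATA) and no Motif 1 (GGTCACAC) was found within 50 bp of any of the 150 downstream summits, whereas a few of the same genes held one at the start. Both words are rare that far into genes. Around the base 150 bp downstream of all protein-coding starts, 0.249% of windows held the DRE and 0.436% Motif 1. From these shares 0 of 150 could not be told apart. Each line gives 30 bases of the RefSeq copy of the dm6 genome, 5′ to 3′ on the gene's strand, with the element in capitals. The first 3 are DREs at the starts of genes with a downstream peak, whose summits lay 118, 242 and 484 bp downstream of those starts. In sov and Pi3K92E a second optimal summit lay close to the same start, 38 bp downstream and 17 bp upstream of it.
Karybeta3, chr3R:4649356-4649385, plus strand: cagtcgcgtttTATCGATAacggcggagca
sov, chrX:6756270-6756299, plus strand: ccatcgatagcTATCGATAactaacttaat
Pi3K92E, chr3R:20634753-20634782, minus strand: gaatgaaacacTATCGATAttaaccagcgc
The next 3 are Motif 1 elements at the starts of genes with a downstream peak.
Mer, chrX:19693493-19693522, minus strand: atctaacggctGGTCACACtgtctatgttt
Lamp1, chr2L:21573357-21573386, plus strand: tttagaaattcGGTCACACtattgatgaag
Brd7-9, chr2L:7782871-7782900, plus strand: acaaaaggaacGGTCACACtgctcatggcg
For comparison, the following are elements at the summits of peaks near the start, from 100 bp upstream to 50 bp downstream of it, with the DRE in eEF1gamma and Map205 and Motif 1 in RpL37A and cib, the last written as its reverse complement.
eEF1gamma, chr3R:29220120-29220149, plus strand: ggcctaggaaaTATCGATAtatcgccgtaa
Map205, chr3R:32068505-32068534, minus strand: attaatcgagcTATCGATAtcttatatata
RpL37A, chr2L:5070979-5071008, plus strand: tatcgagcggcGGTCACACttttcgctctt
cib, chrX:4106010-4106039, plus strand: acccaggcccaGTGTGACCgtgcaaccgcc

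The second set shows sequence at the summits of strong downstream peaks, with the summit base in capitals. PNPase had the strongest of them, in the 5′ untranslated region (UTR) between 2 annotated starts, CG10413 had a like position, and the summits in Ptp4E and stwl lay in first introns.
PNPase, chr3R:31404655-31404684, minus strand: ccaagtctcaagaaaCgtacagggctttta
CG10413, chr2L:18605129-18605158, minus strand: gtctggggttatccgAccccagatagcgca
Ptp4E, chrX:4939975-4940004, plus strand: catttcatatattaaCttctaaatctcgtt
stwl, chr3L:14409510-14409539, minus strand: gcacaacagtcagtcGtccccgaattatcg
Other words were found at a minority of downstream summits. In stwl and Ptpmeg2 below this is the BEAF-32 core CGATA, which reads TATCG on the opposite strand and is also contained in the DRE. In CHES-1-like it is CAGGTAG, a site of the early embryonic activator Zelda. CGATA was within 50 bp of 20 of the 150 summits (13.3%), and CAGGTAG of 3. For CGATA this was close to the 13.0% found 150 bp downstream of all protein-coding starts, and below the 41.2% at summits of peaks near the start. The capitals mark these words.
stwl, chr3L:14409498-14409527, minus strand: gtcgtccccgaatTATCGgccgtcgatagt
Ptpmeg2, chrX:9658950-9658979, minus strand: catcgcttagcatCGATAacgaccgagaac
CHES-1-like, chrX:7709127-7709156, minus strand: acggatggacctCAGGTAGgctaaatatgt

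Downstream peaks were a small share of the promoter peaks, and they crowded towards the start. Of 1775 optimal peaks within 500 bp of the start of a protein-coding gene that was not part of a divergent pair, 150 (8.45%) lay downstream, 1013 lay between 100 bp upstream and 50 bp downstream (called core peaks below), and 612 lay farther upstream (upstream peaks). Each replicate has a longer list of its own, of which the 4417 strongest were classified in the same way. They held 179, 165 and 202 downstream peaks, 182 ± 18.7 (SD, n = 3). The replicates thus gave a few more than the optimal list, in each of the 3.

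The median downstream summit lay 149.5 bp from the start. Up to 150 bp there were 76 summits (50.7%), from there to 300 bp 24 (16%), and beyond 300 bp 50 (33.3%). These bands were chosen after the distances had been seen. The replicates had 97, 76 and 109 summits in the first band, 29, 36 and 39 in the second, and 53, 53 and 54 in the third. The nearest band was the fullest in every replicate, and the far band, which spans 200 bp against 150 bp for the middle one, held more summits than it in every replicate too. The edges of the range cut through a continuous fall on the near side. The summits just inside lay at fz2 (51 bp, signal rank 2806), Lsd-2 (51 bp, 3799) and drn (52 bp, 3046), those just outside at Dek (50 bp, 3415) and Paip2 (50 bp, 4135). At the far edge CG10365 (494 bp, rank 1734), Eip63F-1 (497 bp, 1128) and CG15247 (497 bp, 2211) were inside, and FBgn0010877 and CG33725, both 510 bp downstream with ranks 2667 and 2707, were outside.

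**Figure D1:**
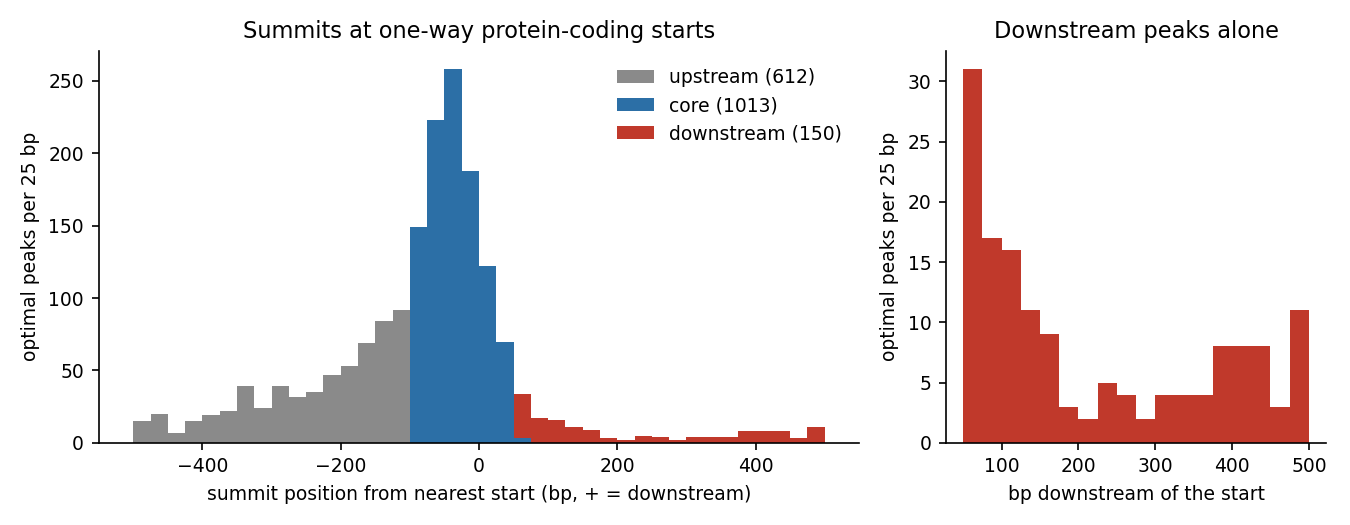
The left panel counts optimal peaks per 25 bp by the position of the summit from the nearest protein-coding start, with divergent pairs left out, for upstream (612), core (1013) and downstream (150) peaks. The right panel shows the downstream peaks on a scale of their own: 76 lay within 150 bp, 24 from there to 300 bp and 50 beyond 300 bp.

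Position along the gene could be read from the peak intervals as well. Of the 150 intervals, 123 had the full width of 384 bp and the narrowest was 104 bp. The interval still covered the start in 76 cases (50.7%), 69 of which were in the nearest band, 7 in the middle one and 0 in the far one. Chromatin had been sheared to fragments of 200 to 800 bp, per the labels, so the width of an interval is no measure of the width of a binding site.

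Downstream summits lay in the 5′ UTR and in first introns, and seldom in coding exons. In the transcripts that begin at the nearest start, 81 summits (54.0%, exact 95% interval 45.7 to 62.2) were in the 5′ UTR and 53 (35.3%, 27.7 to 43.5) in the first intron. Coding exons held 7 (4.67%, 1.90 to 9.38), and later introns held 2, in pAbp, which encodes the poly(A)-binding protein, and Sxl, the switch gene of sex determination. For another 7 the class differed between transcripts, and the strongest of these were CG5515, l(3)neo38, SREBP and Gmppb. Downstream peaks among the replicates' strongest peaks gave 55.6% ± 1.78 in the 5′ UTR, 31.9% ± 0.745 in the first intron and 6.29% ± 2.31 in coding exons (SD, n = 3). The intervals cover counting error over peaks, not variation between embryos.

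The class changed with distance. In the nearest band 63 of 76 summits were in the 5′ UTR and 5 in the first intron, whereas in the far band 9 of 50 were in the 5′ UTR and 34 in the first intron. As a background, every position in the same range downstream of all 19607 protein-coding starts was annotated in the same way. Unlike the rule for peaks, this kept divergent pairs and positions nearer to another start. A position in the range of several starts was counted for each of them. Of those positions 27.6% were 5′ UTR, 24.2% first intron and 40.9% coding exon. In the far band the first intron held 29.1% of positions and 68.0% of summits, and coding exons 46.8% of positions and 4.00% of summits. In the nearest band the 5′ UTR held 56.8% of positions and 82.9% of summits, and coding exons 27.8% and 5.26%. Summits were thus sparse in coding exons in each band. The replicates had 7.82%, 3.64% and 7.43% of their downstream summits there. No test was made of this difference, since the positions are not replicates.

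**Figure D2:**
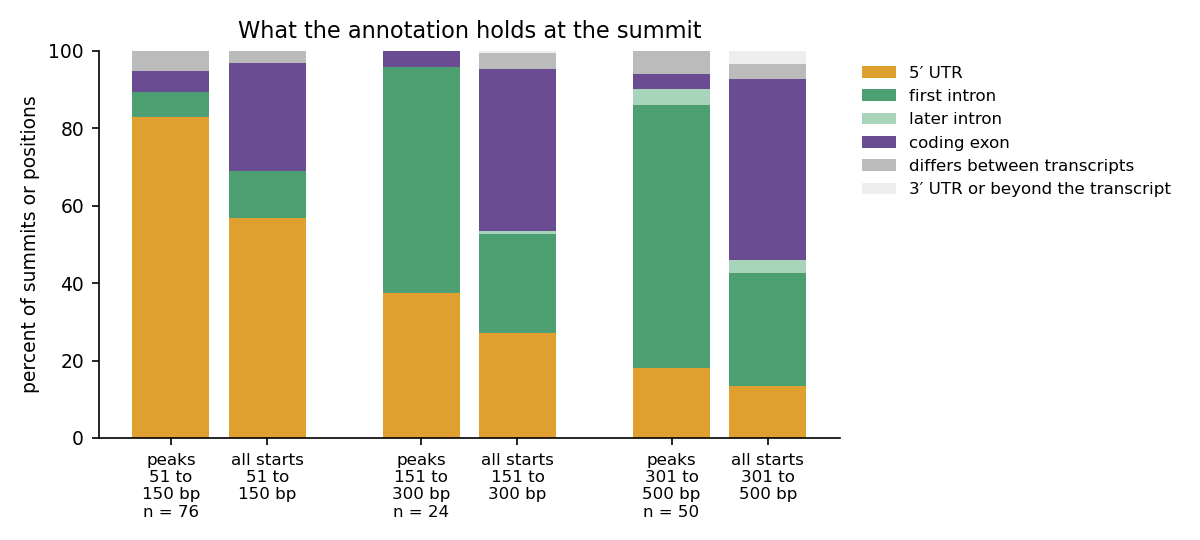
Stacked bars give the percent of downstream summits (n = 76, 24 and 50) and of all positions downstream of 19607 protein-coding starts that fall in each annotation class, by distance band. Coding exons take 46.8% of positions beyond 300 bp and 4.00% of summits there, where the first intron takes 68.0%.

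The 81 peaks in 5′ UTRs were near the start and far from the start codon. Their median distance was 92 bp, the start codon lay a median of 749 bp beyond the summit in the genome, and 58 of their intervals covered the start. The strongest was in PNPase, which encodes polynucleotide phosphorylase, an RNA exonuclease of mitochondria. It lay at chr3R:31404491-31404829, with the summit 71 bp from the start, and its signal rank was 8 in the optimal list and 8, 7 and 8 over replicates 1, 2 and 3. GstE13, a glutathione S-transferase gene, ranked 37 (59, 30 and 31 in the replicates) with its summit 75 bp from the start at chr2R:9122032-9122348. Both were among the strongest peaks of the whole list in every replicate. CG10413 followed with rank 107 (112, 95 and 140) at 106 bp, and bgcn, a partner of bam in the differentiation of germline cells, with rank 129 (248, 103 and 119) at 146 bp.

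Further strong peaks in 5′ UTRs lay at genes of varied function. The carbonic anhydrase gene CAH3 ranked 319 (577, 284 and 243), and egh, which encodes a glycosyltransferase of glycosphingolipid synthesis, ranked 423 (473, 516 and 432). The summit in egh was 341 bp from the start, 13 bp before the end of the first exon. Eip75B, an ecdysone-induced nuclear receptor gene with 7 starts, ranked 486 (362, 679 and 506). Its place was the least certain of the strong ones. The summit was 53 bp downstream in the optimal list, but 82 and 14 bp downstream in replicates 1 and 2, and 14 bp upstream in replicate 3. By contrast the summit in ph-p, a subunit gene of Polycomb repressive complex 1, was 390, 413 and 404 bp downstream in the replicates, with ranks 416, 336 and 1165. A near-identical copy, ph-d, lies beside ph-p, and how reads shared by the copies were placed is not known.

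First-intron peaks lay farther in and ranked somewhat higher. The 53 summits had a median distance of 361 bp and a median rank of 2430, against 92 bp and 2835 for the 5′ UTR. In 50 of them the distance to the end of the first exon was the same in all transcripts from that start, and it was a median of 169 bp (10 to 415). The first exons were a median of 152 bp long. Of these peaks, 34 were among the strongest of all 3 replicates, against 37 of the 81 in 5′ UTRs. No test was made of these differences.

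Ptp4E, which encodes a receptor tyrosine phosphatase, led the first-intron peaks. Its summit at chrX:4939990 was 409 bp from the start and 315 bp past the first exon, and its rank was 214 (164, 417 and 183 in the replicates). The summit was 382, 408 and 407 bp downstream in the replicates. CG31612, at chr2L:21794808-21795092, ranked 224 (270, 214 and 235) with its summit 471 bp from the gene's only start. The chromatin protein gene stwl, needed for germline stem cell maintenance, ranked 271 (347, 267 and 332) with the summit at 415 bp. These 3 peaks kept their place to within 30 bp in every replicate.

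The remaining first-intron peaks among the strongest 20 were rudhira, at 270 bp with rank 346 (318, 330 and 566), and wun, at 397 bp with rank 418 (503, 669 and 310). The product of rudhira acts in the migration of blood cells, and wun encodes a lipid phosphate phosphatase that guides germ cells. Of the 20 strongest downstream peaks, 15 were in the 5′ UTR and 5 in the first intron. The 20 were all found in every replicate, and their ranks ran from 8 to 717 in the optimal list and to 1566 at most in a replicate. Those not named elsewhere included Ptpmeg2, a tyrosine phosphatase gene, at 169 bp with rank 465 (452, 590 and 499), and the cation channel gene Trpm, at 167 bp with rank 535 (740, 446 and 569). The importin gene Karybeta3, at 118 bp, ranked 681 (1566, 534 and 438), and the forkhead gene CHES-1-like, at 249 bp, ranked 717 (753, 722 and 740).

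**Figure D3:**
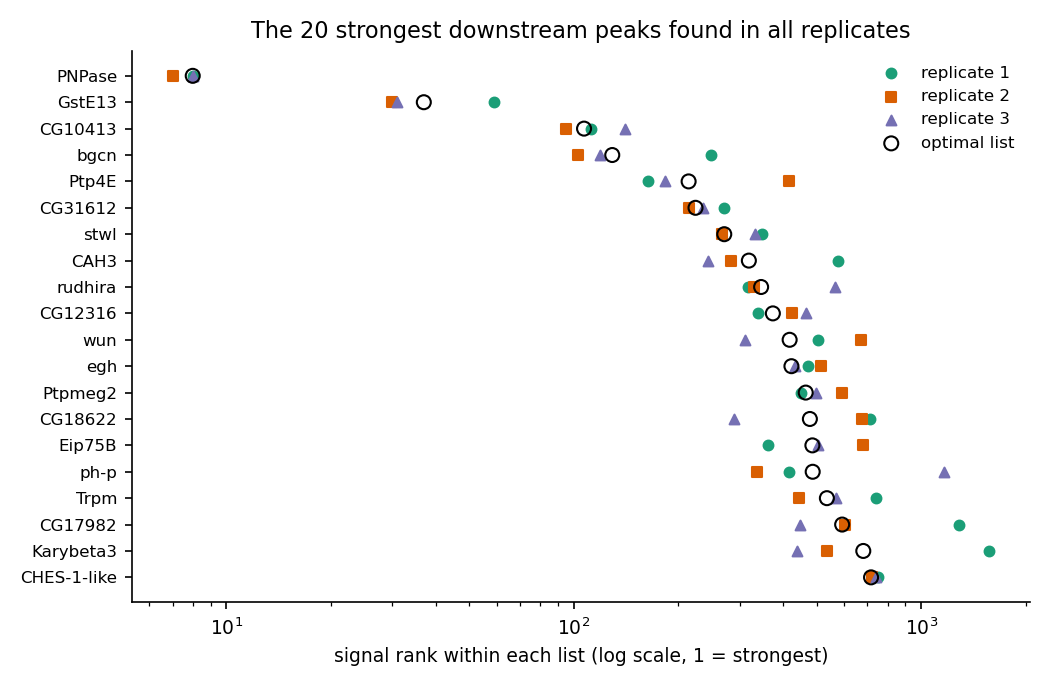
Signal ranks of the 20 strongest downstream peaks in the optimal list (open circles) and in replicates 1, 2 and 3 (filled symbols), on a log axis where 1 is the strongest peak. PNPase ranks 7 or 8 in each replicate, and Karybeta3 has the widest spread, from 438 to 1566.

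The 7 peaks in coding exons ranked from 921 to 4325, with a median percentile of 32.6 against 39.0 for all downstream peaks. The strongest, CG44812, ranked 921 (894, 2216 and 574) with its summit 414 bp from the start. Next were omd (rank 2679), Tom (2689) and uri (2979), with summits 73, 149 and 55 bp from the start, and Got2 (3792), CG32195 (4122) and CG33229 (4325) were the weakest. Relative to the start codon, 127 of the 150 summits lay before it, and 41 of these within 500 bp of it.

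Genes with several starts carried most downstream peaks. More than 1 start was annotated in the gene of 116 peaks (77.3%, exact 95% interval 69.8 to 83.8), against 26.5% of all 13945 protein-coding genes. A gene with more starts offers more places to the rule, so the fairer figure is that 47.7% of protein-coding starts belong to such genes. Core peaks gave 47.7% and upstream peaks 56.0%. In the replicates the share was 71.5%, 74.5% and 71.3% downstream and 48.1%, 46.4% and 49.0% in core peaks. Downstream peaks were therefore higher in 3 of 3 replicates, by 24.6 percentage points ± 3.13 (SD, n = 3, two-sided exact sign-flip permutation p = 0.25, the smallest that 3 pairs allow). The gene with the most starts was cnc, a bZIP factor gene of the oxidative stress response, with 10, and 65 peaks were at genes with 3 or more.

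The start next to the summit was often an internal one. In 66 cases (44.0%, exact 95% interval 35.9 to 52.3) it was not the gene's first start, while 28.9% of all protein-coding starts are not the first. Only a gene with several starts can have an internal one. Of the 116 peaks at such genes, 50 were at the first start. Such genes hold 47.7% of all starts, so within them internal starts were no more frequent at these peaks than among all starts. The first start was the nearest for 56.0% of downstream peaks and 80.0% of core peaks, and in the replicates for 60.9% ± 4.28 and 80.4% ± 0.596 (SD, n = 3). Against core peaks the difference was -22.8, -21.9 and -13.9 percentage points in replicates 1, 2 and 3 (exact sign-flip permutation p = 0.25). Upstream peaks lay in between, at 66.0% in the optimal list and 65.4%, 66.8% and 66.7% in the replicates, against 58.1%, 58.8% and 65.8% downstream. First-intron and 5′ UTR peaks parted here. Of the 53 in first introns, 37 were at an internal start and 46 at a gene with several starts, whereas of the 81 in 5′ UTRs 60 were at the first start. Examples of internal starts were those of Ptp4E, rudhira, wun and egh.

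A second group of peaks lay between alternative starts. A later start of the same gene lay beyond 81 summits, by a median of 1109 bp, and within 500 bp beyond 24 of them (16%; 16.2% ± 3.97 in the replicates, SD, n = 3). The rule requires the start upstream to be the nearest, so a later start is farther away by construction. These 24 included the leading peaks. In PNPase the next start was about 100 bp beyond the summit, in GstE13 124 bp, in CG10413 121 bp and in CAH3 172 bp. Such a summit could be counted to either start of the gene.

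Of the 20 strongest downstream peaks, 7 had a later start within 500 bp. The others of this kind among them were CG12316 (440 bp, rank 374), CG18622 (411 bp, rank 478) and CG17982 (167 bp, rank 592). Among all 24 the median gap to the later start was 191.5 bp, 12 were within 200 bp, 19 were in the 5′ UTR and 14 were found in all 3 replicates. Their median rank was 2487.5, against 2696 for all 150.

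**Figure D4:**
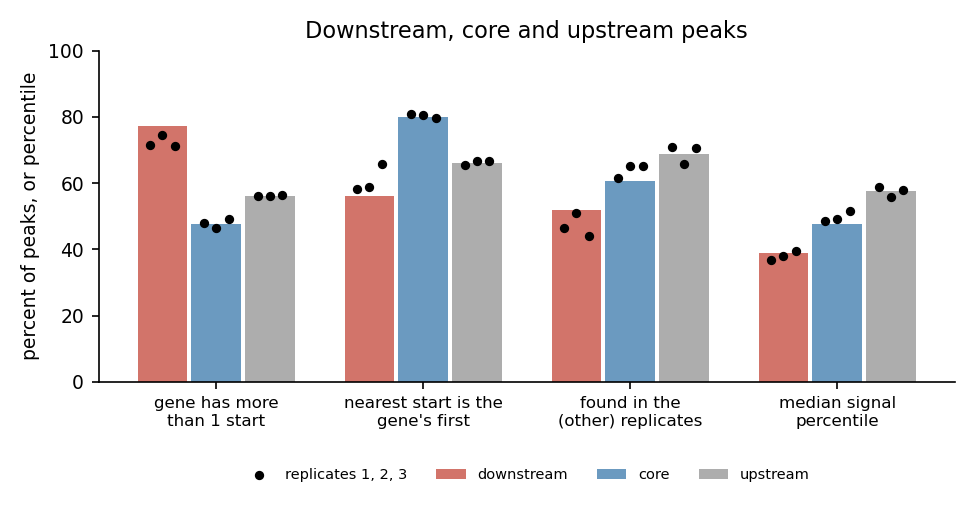
Bars give optimal downstream (150), core (1013) and upstream (612) peaks, and points give the same measure in the 4417 strongest peaks of replicates 1, 2 and 3. For the third measure the bar is the share matched in all 3 replicates and a point the share of that replicate's peaks matched in both others. In each replicate downstream peaks have more genes with several starts (71.3% to 74.5% against 46.4% to 49.0% in core peaks), and fewer of them lie at the gene's first start.

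Most downstream peaks had no second optimal summit near the same start, but this varied with distance. A second summit was there for 3 of 76 peaks in the nearest band, 4 of 24 in the middle one and 10 of 50 in the far one. In the nearest band 69 of the 76 intervals themselves covered the start. Whether a separate summit could be called so close was not tested. For 133 of 150 no other optimal summit lay within 500 bp of the same start. In the other 17 the second summit (the strongest where there were several) was stronger than the downstream one in 13 cases. It lay over 100 bp upstream in 12, in the core range in 3 and farther downstream in 2. Ptp4E was an exception in strength, with a second, weaker summit 414 bp upstream of the start (rank 2933), and aru had one 317 bp upstream (rank 3652 against 764). In kuk the upstream summit was the stronger (rank 1011 against 1563), as in Dp, where both were close in rank (1700 and 1793). The gene CG11151 had a summit of rank 251 upstream and 1 of rank 2342 downstream, and sov a core summit 38 bp downstream of rank 687 beside its downstream summit of rank 2155.

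Over the class as a whole, signal was lower than at core and upstream peaks. The median downstream peak stood at the 39.0th percentile of signal in the optimal list (rank 2696), against 47.7 for core and 57.7 for upstream peaks. By distance the median was 34.8 in the nearest band, 37.8 in the middle one and 48.8 in the far one. The far band was thus below upstream peaks but not below core peaks. In the replicates the median downstream peak stood at percentiles 36.7, 37.9 and 39.4, and core peaks at 48.7, 49.3 and 51.5. The ranges did not overlap, and the difference was -11.8 ± 0.353 (SD, n = 3, two-sided exact sign-flip permutation p = 0.25, adjusted p = 0.333 over 4 comparisons). The strongest 441 of the 4417 optimal peaks held 12 of the 150 downstream peaks, a somewhat lower share than that of all optimal peaks. Signal was the authors' value for each peak, used here as a rank within a list only.

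Over the class as a whole, replicates found fewer downstream than core peaks in common. A summit within 150 bp among the 4417 strongest peaks was found in all 3 replicates for 78 of 150 (52%, exact 95% interval 43.7 to 60.2), in 2 for 48, in 1 for 23 and in none for slpr, a kinase gene of the JNK pathway with rank 4310. The same share was 60.5% in core and 69.0% in upstream peaks. In the nearest band 34 of 76 downstream peaks were found in all 3 replicates, and in the middle one 13 of 24. In the far band 31 of 50 were, a share not below that of core peaks. Of each replicate's own downstream peaks, 46.4%, 50.9% and 44.1% were matched in both others, against 61.5%, 65.3% and 65.1% of core peaks. The difference was -16.8 percentage points ± 3.66 (SD, n = 3, exact sign-flip permutation p = 0.25, adjusted p = 0.333). The lower signal of downstream peaks moved with this difference, and its part in it was not tested.

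Where a summit was matched, most shifts were well below the 150 bp that a match allowed. Among 353 matched summits the median shift was 15 bp, and 306 (86.7%) were within 50 bp. Larger shifts counted as unmatched, so this is no measure of stability over all downstream peaks. A replicate summit within 150 bp also fell in the range from 51 to 500 bp in all 3 replicates for 99 peaks, in 2 for 36, in 1 for 12 and in none for 3. The 3-replicate count is higher here than above because entries below the 4417 strongest of a replicate were allowed.

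Housekeeping promoter words were rare at downstream summits. The DRE was in 0 of 150 windows (the summit with 50 bp on each side), which allows a share of up to 2.00% by the limit of 3 counts and 2.43% by the exact 95% interval, and in 0 of the windows of each replicate's downstream peaks. Core peaks held it in 10.2% of windows and upstream peaks in 2.12%. The difference from core peaks was -9.30 percentage points ± 0.758 over the replicates (SD, n = 3, exact sign-flip permutation p = 0.25, adjusted p = 0.333). Position matters for this reading. Of 19253 protein-coding starts 4.48% held the DRE around the start, but 0.249% around the base 150 bp downstream and 0.119% at 400 bp. At this number of peaks, 0 of 150 could not be told apart from those 2 shares.

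Motif 1 was in 0 of 150 downstream windows and 10.9% of core windows. Among the replicates' downstream peaks it was in 0%, 1.21% and 0% of windows. It was at 4.68% of all starts and in 0.436% of windows 150 bp downstream, a share from which 0 of 150 could not be told apart. The BEAF-32 core CGATA, which is also contained in the DRE, was in 20 downstream windows (13.3%, exact 95% interval 8.34 to 19.8) and in 41.2% of core windows. At 150 bp downstream of all starts it was in 13.0%. The difference from core peaks was -28.0 percentage points ± 0.964 over the replicates (SD, n = 3, exact sign-flip permutation p = 0.25). All words were sought on both strands.

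GAGAG, the core of a GAGA site, did not separate the summits. It was in 13.3% of downstream, 11.5% of core and 11.1% of upstream windows, and in 11.0% of windows 150 bp downstream of all starts. Against core peaks the difference was 8.37, -2.49 and 2.08 percentage points in the replicates (exact sign-flip permutation p = 0.75, adjusted p = 0.75). The longer GAGAGAGA, which contains it, was in 0 downstream summit windows of the optimal list and in 0.559%, 1.82% and 1.49% of those of the replicates. The E-box CAGCTG was in 6 windows (4.00%), against 9.77% of core windows and 5.45% of windows 150 bp downstream of all starts. Motif 7 (CATCNCTA) was in 3 (2.00%, with 0.559%, 1.21% and 0.990% in the replicates), against 0.732% at 150 bp downstream. The Pho core GCCAT was in 23 (15.3%), TATAAA in 15 (10%) and TCAGT of the initiator in 29 (19.3%). The AP-1 site TGANTCA was in 2 (1.33%) and the CTCF core AGGTGGCG in 0. At 150 bp downstream of all starts GCCAT was in 19.3%, TATAAA in 7.87% and TCAGT in 16.6% of windows. There TGANTCA was in 1.92% and AGGTGGCG in 0.312%. The Zelda word CAGGTAG was in 3 (2.00%), in CHES-1-like, CG31729 and D2hgdh, against 0.0987% of core windows and 0.696% of windows 150 bp downstream of all starts. It was higher than in core peaks in 3 of 3 replicates (exact sign-flip permutation p = 0.25), on counts too small to read further.

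The starts next to these summits differed from those under core peaks, and less from those at upstream peaks. Within 50 bp of the nearest start, GAGAG was present for 37 of 150 peaks (24.7%, exact 95% interval 18.0 to 32.4), against 12.6% for core peaks, 18.0% for upstream peaks and 12.7% of all starts. The replicates gave 26.8%, 18.2% and 26.2%, each above its core peaks, by 11.7 percentage points ± 5.21 (SD, n = 3, exact sign-flip permutation p = 0.25). Against upstream peaks the difference was 7.36, 0.843 and 8.60 percentage points in replicates 1, 2 and 3. CG31612, stwl and CG12316 were the strongest with this word. The initiator word TCAGT was at 47 starts (31.3%), against 21.3% for core and 35.8% for upstream peaks, and all starts gave 31.7%. The DRE was at 3 of the starts next to downstream peaks (2.00%), against 9.08% for core and 2.78% for upstream peaks. Motif 1 was at 4 (2.67%), against 13.6% for core and 5.72% for upstream peaks. So for TCAGT, the DRE and Motif 1 the core peaks stood farther from the average start than the downstream peaks did, whereas for GAGAG the downstream peaks did. For summits within about 100 bp of the start, the windows at start and summit overlap.

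**Figure D5:**
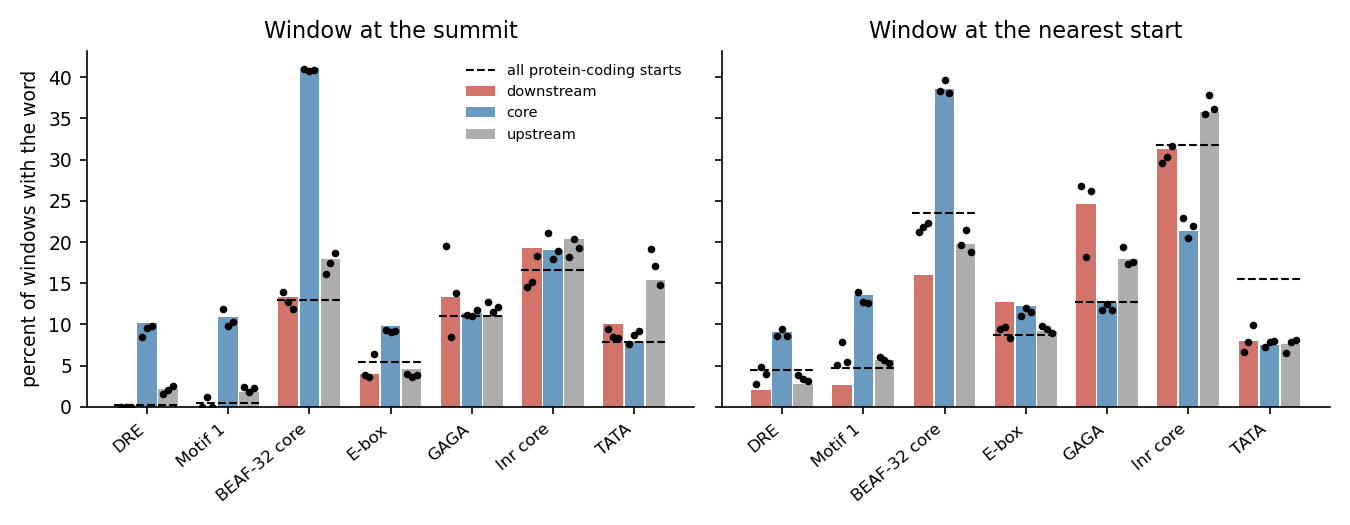
Percent of windows, each a base with 50 bp on either side, that hold each word, at the summit (left) and at the nearest start (right), for optimal downstream, core and upstream peaks (bars) and the replicates' strongest peaks (points). Dashed lines give all 19253 protein-coding starts, 150 bp downstream on the left and at the start on the right. The DRE is at 0% of downstream summits and 10.2% of core summits, and GAGA at 24.7% of starts with a downstream peak.

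Base composition lay between the other classes. The median G+C content of the summit windows was 41.1% for downstream, 44.6% for core and 35.6% for upstream peaks. In the replicates it was 41.6% ± 0.990 downstream and 44.2% ± 0.572 in core peaks (SD, n = 3), lower in 3 of 3.

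Ribosomal protein and translation factor genes had core but not downstream peaks. None of 86 cytosolic ribosomal protein genes had a downstream peak, while 40 had a core peak. None of 54 translation factor genes (12 with a core peak) or 73 mitochondrial ribosomal protein genes (1 with a core peak) had one. Of all protein-coding genes 148 (1.06%) had a downstream and 999 (7.16%) a core peak. At so low a share a count of 0 in lists of this size says little.

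Chromatin and signalling genes supplied several members. Of 29 genes of the Polycomb and Trithorax groups 4 had a downstream peak (13.8%, against 1.06% of all protein-coding genes), namely ph-p, Trl, Utx and Kdm2. The same list had a core peak at 24.1% and an upstream peak at 13.8% of its genes, against 7.16% and 4.11% of all, so its share was above that of all genes in each class. Trl encodes the GAGA factor itself, and its summit ranked 870 (2165, 879 and 458 in the replicates) at 109 bp downstream of an internal start. Utx and Kdm2, both histone demethylase genes, ranked 2400 and 3487, and each was among the strongest peaks of 2 replicates. These 4 lay in the 5′ UTR.

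Of 70 signalling genes 5 had a downstream peak (7.14%), while 17.1% had a core and 12.9% an upstream peak, each share again above that of all genes. Mer, the merlin gene of the Hippo pathway, ranked 1074 (2419, 867 and 771), with its summit 78 bp downstream in the first intron. The ETS repressor gene aop ranked 2085 (1974, 7846 and 1745) and the JAK/STAT transcription factor gene Stat92E 2406 (1099, 3984 and 4628). The Wingless receptor gene fz2 ranked 2806 (2319, 6430 and 2716) and Apc, a gene of the beta-catenin destruction complex, 3627 (2717, 4163 and 2891). For aop, Stat92E and fz2 the summit was beyond the strongest 4417 in 1 replicate each.

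Other lists had 1 to 3 genes each. Of all protein-coding genes 1.06% had a downstream, 7.16% a core and 4.11% an upstream peak. Among 48 cytoskeleton and adhesion genes those with a downstream peak were dlg1, sqh and par-1 (6.25%, with 33.3% for core and 8.33% for upstream peaks). They encode a junctional scaffold, the regulatory light chain of myosin and a polarity kinase. Among 45 splicing and RNA-binding genes they were pAbp, Sxl and smg (6.67%, with 17.8% and 11.1%), the last a translational repressor of early embryos. Developmental transcription factors had ttk among 84 (1.19%, close to the share of all protein-coding genes). Cell cycle genes had Dp, the partner of E2F, among 38 (2.63%, with 18.4% and 18.4%). Insulator proteins had pita among 21 matched genes (4.76%, with 28.6% and 4.76%). Another 5 names of that list were not matched to the annotation, among them GAF, another name for the product of Trl, which had a downstream peak as given above. Of the chromosome arms, 2L carried 25 of the peaks, 2R 32, 3L 28, 3R 31, 4 a single one and X 33. These counts are not set against all optimal peaks of each arm, so no preference for an arm can be read from them.

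Neighbouring annotation touched few of the peaks. A start of another gene lay within 500 bp of the summit in 11 cases, and 19 summits were inside the body of another gene. At 4 starts a second gene shared the position, namely CG45092 with chk, Lpin with kermit, CG46319 with gem and lncRNA:CR42862 with CG33229, so the peak could be named for either.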

How the data were processed

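The peak lists deposited for 3 biological replicates and for the pooled reads were used on the dm6 build, per the labels. The authors' signal value of each peak was used as a rank within its list. The summit offset in bp was counted from 0 in the deposited lists and 1 was added. Which aligner, peak caller and threshold on the irreproducible discovery rate were used is not given in the sources used here. No read counts are in the lists, so the depth is unknown and no precision from depth can be given. Summits were assigned to the nearest start of Ensembl release 115 (BDGP6.54 annotation of the same assembly, 18164 genes and 23581 start positions, transposable elements left out). Sequence came from the RefSeq copy of the assembly. Replicates were compared by their 4417 strongest peaks, matched within 150 bp, with 3 replicates in a two-sided exact sign-flip permutation test whose smallest p is 0.25, adjusted after Benjamini and Hochberg over the 4 comparisons for which a p adjusted is given, so no call is possible. The replicates also fed the optimal list and are not independent of it. Python 3.11.15, numpy 2.4.6, pandas 2.3.3, scipy 1.17.1 and matplotlib 3.10.9 were used, and classification, matching and word search were checked on simulated data. Named were the 20 strongest peaks found in all replicates, those at the edges of the range, and the strongest of each annotation class, word and gene list. The peaks, words and gene lists were chosen with earlier results of these data known. Alternatives were other distance ranges, stronger peaks, matching distances, word windows, start sets and leaving out each replicate.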

Additional observations from a re-analysis of the deposited data

How the results depend on the processing

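Of 68 recomputed values for 8 results, 34 stayed within 1 SD of the replicates, or for the number of peaks within 1.5 times of it, and 34 moved. Restricting the range to 51 to 250 bp left 94 peaks, with 47.9% in all replicates, 16% in first introns, 75.5% in 5′ UTRs, 25.5% with a later start and a median percentile of 36.0. A range from over 100 to 500 bp left about 100 peaks, within that factor but by more than the SD of 18.7, and gave 56.4% in all replicates, 51.5% in first introns, 38.6% in 5′ UTRs and a percentile of 45.5, so the annotation shares depend on the distance range by construction. The optimal peaks of at least median signal held 56, with 94.6% in all replicates, 37.5% in first introns and a percentile of 74.8. Leaving out a replicate meant keeping peaks matched in both others. This left 91 to 96 peaks, of which 81.2% to 85.7% were in all replicates, 38.5% to 41.7% in first introns, 49.0% to 50.5% in 5′ UTRs and 16.7% to 20.9% before a later start, at percentiles of 54.7 to 58.5. Matching within 50 bp gave 34.0% in all replicates and within 300 bp 56.7%. Word windows of 100 bp on each side held a DRE in 0.667% and GAGAG in 24.7%. Counting starts of coding transcripts only, or leaving out the added 1 bp, changed none of the values recomputed. No paired analysis was possible because there is no second group of samples to pair, and the differences between classes of peaks were taken within each replicate. Depth is unknown, which leaves the cause of unmatched summits untested.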

Other observations

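Among all 2080 words of 6 bases, counted with their reverse complements, GACAAA had the widest gap in which downstream summit windows exceeded core ones. It was in 25 of 150 downstream windows (16.7%), 4.74% of core windows, 6.05% of upstream windows and 5.50% of windows 150 bp downstream of all protein-coding starts. The replicates' downstream peaks gave 9.50%, 13.9% and 13.9%, against 4.98%, 4.52% and 5.57% of their core peaks. The word was picked for this gap after the values had been seen, so no test is given. The peaks with it had a median rank of 3347 in the optimal list.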
